A study of Mus musculus with 72 samples.

Results

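Potassium channel genes were taken as the protein-coding genes whose name starts with Kcn and whose mean level over all 72 libraries was above 1 CPM. This unit gives a gene's count relative to the total of its library. Thresholds used the plain total, and the CPM values of libraries and groups used a scaled total. Of 55401 genes in the count table, 97 have a name that starts with Kcn, 92 of these are protein coding, and 79 passed the threshold. The other 13 were at or below it. With the threshold at 0.5 or 2 CPM, 80 or 74 genes would have been kept. Since 48 of the 72 libraries come from day 14, the threshold favors genes used at that age, but 78 of the 79 genes also averaged above 1 CPM in saline pups at PND1 (all but Kcng4) and 77 in saline pups at PND14 (all but Kcnrg and Kcnk5).

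Potassium channels let potassium leave the cell and so set the resting potential, repolarize the action potential and limit firing. They fall into voltage-gated channels (Kv, including the KCNQ and KCNH families), calcium- or sodium-activated channels, inward rectifiers (Kir, the Kcnj genes) and leak channels with a pair of pore domains (K2P, the Kcnk genes), and auxiliary subunits tune the voltage-gated ones. In the brain, Kir channels of astrocytes clear potassium that neurons release, and G-protein-gated inward rectifiers (GIRK) are opened by the beta and gamma subunits of G proteins when mu-opioid receptors bind morphine.

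RNA came from the right brain hemisphere of C57Bl/6 mouse pups (C57Bl/6NTac in the study's methods), and the study asked how morphine given in different developmental windows changes the transcriptome. At PND1, pups had been exposed before birth to morphine (10 libraries) or saline (14 libraries) through a minipump in the dam that released 10 mg/kg of morphine per day, and were killed 6 h after the litter was found by the study's methods (after birth by the design text). At PND14, pups had been injected with 10 mg/kg of morphine (12 libraries) or saline (12 libraries) each morning and evening, starting on the evening of PND1 and ending on the morning of PND14, and were killed 6 h after the last dose. The 3-Tri pups had both exposures, to morphine (12 libraries) or saline (12 libraries), and were also killed on day 14. Each group was divided by the gender code M or F, giving 4 libraries of F and 6 of M for morphine at PND1, 7 of each for saline at PND1, and 6 in each other group. PND1 and PND14 pups came from different cohorts, so age and cohort cannot be told apart. Litters are not named in the sources used here, and the morphine and saline pups of a day 14 window carry different ID numbers, so a litter effect and the drug cannot be told apart there. At PND1 the pump of the dam set the drug for the whole litter, so the same holds at that age.

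Total counts ranged from 3113919 to 27333100 per library, and only 1 library of F morphine pups at PND14 (4407540) and 1 of M saline pups in 3-Tri (3113919) lay below 7528800. In saline pups every PND1 library (20742862 to 27333125) was deeper than every PND14 library (8174598 to 20369501), so depth went along with age. In 16 libraries (4 at PND1, 0 at PND14 and 12 in 3-Tri) Xist and Ddx3y went against the code, so each comparison was also run without them. Markers of cell types differed between ages. In saline pups 7 of 7 tested hindbrain and spinal cord markers were lower at PND14 than at PND1, with a median log2 fold change of -4.25 and a summed level of 1.088 to 4.42 CPM at PND14 and 9.25 to 46.5 CPM at PND1. Over the same step 7 of 7 oligodendrocyte markers and 6 of 7 astrocyte markers were higher, with medians of 5.81 and 1.91, and 6 of 7 neuron markers were higher, with a median of 1.319. Their part in the changes below was not tested. In bulk tissue fewer cells of a type, less RNA per cell and a difference in the tissue taken cannot be told apart.

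The promoters of the genes with the largest changes between PND1 and PND14 show how unlike their sequences are. RefSeq promoter windows of 300 bases (250 before and 50 after the start, build GRCm38.p6) matched 56 of the 79 genes, with 80 windows. Shown here 5′ to 3′ are the windows of 3 inward rectifier genes with large rises and of Kcnh4, the gene with the largest fall, with motif letters in capitals: the GC box GGGCGG (or CCGCCC on the other strand), the TATA box TATAAA and the E-box CACGTG.
Kcnj4, chr15:79505192-79505491, minus strand: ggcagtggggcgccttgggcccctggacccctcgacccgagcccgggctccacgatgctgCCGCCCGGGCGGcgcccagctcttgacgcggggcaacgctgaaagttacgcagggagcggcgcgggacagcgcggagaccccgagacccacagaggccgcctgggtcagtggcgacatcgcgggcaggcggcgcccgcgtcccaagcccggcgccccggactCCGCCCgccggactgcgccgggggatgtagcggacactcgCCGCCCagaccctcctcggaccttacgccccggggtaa
Kcnj9, chr1:172329273-172329572, minus strand: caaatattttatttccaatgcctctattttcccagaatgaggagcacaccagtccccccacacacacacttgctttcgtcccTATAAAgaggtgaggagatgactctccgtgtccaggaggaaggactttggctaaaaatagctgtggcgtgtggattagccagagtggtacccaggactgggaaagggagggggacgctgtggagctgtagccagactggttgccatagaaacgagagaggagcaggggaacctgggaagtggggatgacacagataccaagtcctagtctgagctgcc
Kcnj10, chr1:172340960-172341259, plus strand: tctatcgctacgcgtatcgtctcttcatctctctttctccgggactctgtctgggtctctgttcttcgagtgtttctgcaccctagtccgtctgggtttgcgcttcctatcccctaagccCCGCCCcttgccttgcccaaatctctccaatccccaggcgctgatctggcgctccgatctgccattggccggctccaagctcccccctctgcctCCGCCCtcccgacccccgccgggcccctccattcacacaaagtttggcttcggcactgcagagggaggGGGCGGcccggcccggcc
Kcnh4, chr11:100759729-100760028, minus strand: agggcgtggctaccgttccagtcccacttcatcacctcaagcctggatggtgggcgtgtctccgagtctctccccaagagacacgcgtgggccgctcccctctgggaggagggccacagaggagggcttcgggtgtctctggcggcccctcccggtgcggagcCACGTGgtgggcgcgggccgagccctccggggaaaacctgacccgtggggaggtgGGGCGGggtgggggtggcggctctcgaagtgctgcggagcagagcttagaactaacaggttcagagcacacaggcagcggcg

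The Kcnj4 window held 41 CpG dinucleotides at 76.0% GC, Kcnj10 held 21 at 63.7% and Kcnj9 held 5 at 52.3%, so the steepest risers included both a CpG-rich and a CpG-poor start. The Kcnh4 window held 23 at 68.7%. Over all 80 windows the median was 10 CpG, against 7 over the 32851 promoters of the table. A GC box, searched on both strands, was present in 51.2% of these windows and in 35.7% of all promoters. TATAAA was present in 5% (Kcnab1, Kcnj13, Kcnj16 and Kcnj9), against 13.6% of all promoters. CACGTG was present in 6.25% (Kcnab1, Kcnh4, Kcnj2 and Kcnk5), against 7.15%, and the cAMP response element TGACGTCA in 0%, against 1.79%. These are letter matches only.

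In saline pups, most potassium channel genes were higher at PND14 than at PND1. Of the 79 genes, 60 rose and 14 fell at an adjusted p below 0.05 (edgeR quasi-likelihood test, Benjamini-Hochberg over all genes), and only Kcnq1, Kcnj2, Kcnj8, Kcnj13 and Kcnj14 were not called. Over all genes tested, 41.7% were called higher and 43.2% lower, and among genes with a mean above 1 CPM the shares were 44.2% and 43.2%. The counts by class below are to be read against these shares. The median log2 fold change was 1.07 over the 79 genes and -0.02 over all genes. In 51 genes every PND14 library lay above every PND1 library, in 8 every one lay below, and in 20 the ranges overlapped. Such separation was not counted over all genes. The summed share of all counts was 0.495% to 0.554% (median 0.528%) at PND14, against 0.252% to 0.290% (median 0.272%) at PND1.

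**Figure D1:**
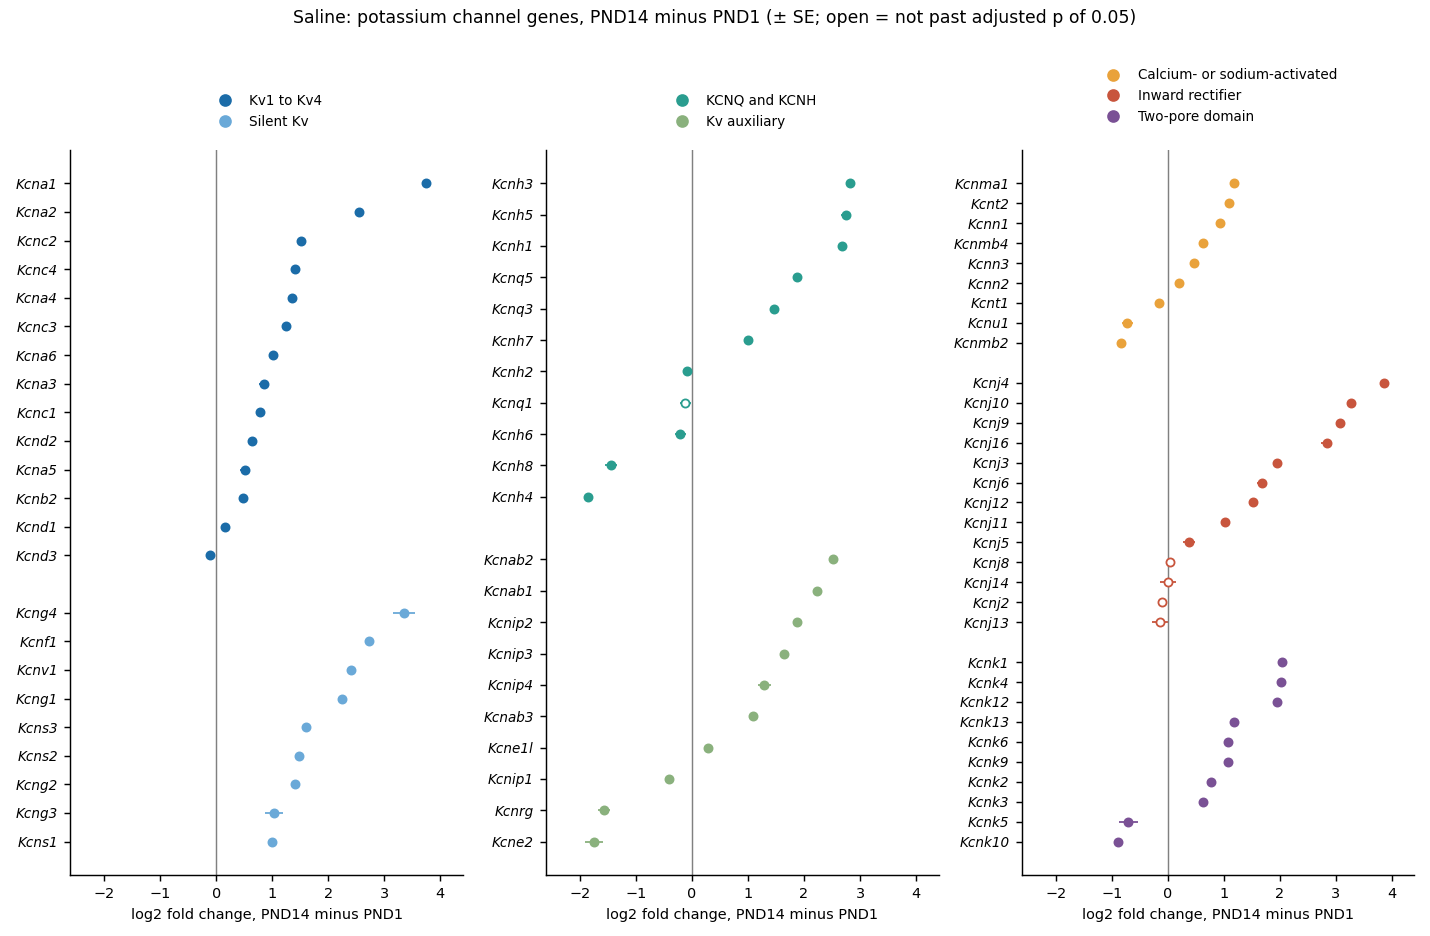
Each point is 1 of 76 potassium channel genes (3 are not shown), with its log2 fold change of PND14 minus PND1 in saline pups (x axis) and its SE, colored by class and ordered by size, and open points were not called. Most points lie right of 0, up to 3.86 for Kcnj4, and the KCNQ and KCNH panel is the one with the largest fall, -1.86 for Kcnh4.

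Inward rectifiers held the genes with the largest rise, Kcnj4, and 3 others above a log2 fold change of 2. Among 13 Kcnj genes 9 rose, 0 fell and 4 were not called, with a median log2 fold change of 1.52. Their summed level per kilobase of exon was 194 ± 6.29 CPM per kb at PND14 (SD, n = 12) and 34.6 ± 1.33 CPM per kb at PND1 (SD, n = 14).

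Kcnj4, which encodes the strong inward rectifier Kir2.3 and had the highest level per kilobase of its class, stood at 108, 123 and 131 CPM at PND14 (lowest, median and highest) and at 6.86, 8.50 and 10.2 CPM at PND1. All PND14 values were far above all PND1 values, and the gene rose 14.6-fold (log2 fold change 3.86, SE 0.06, adjusted p = 4.5e-62). Kcnj10, which encodes Kir4.1, the main potassium channel of astrocytes, had 247, 276 and 365 CPM at PND14, against 22.98, 28.6 and 37.1 CPM at PND1, a 9.65-fold rise (log2 3.27, SE 0.07). Kcnj16, whose product Kir5.1 pairs with Kir4.1, rose by a log2 fold change of 2.83 (SE 0.09). Its levels were 20.5, 23.4 and 36.6 CPM at PND14 and 2.22, 3.51 and 4.60 CPM at PND1, again without overlap. Kcnj2, the gene of Kir2.1, had 8.07, 10.8 and 12.7 CPM at PND14, against 9.80, 11.3 and 14.1 CPM at PND1 (log2 -0.10, SE 0.06, adjusted p = 0.14).

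The 4 GIRK genes lie on chromosomes 2 (Kcnj3, GIRK1, 55435970 to 55598145, plus strand), 9 (Kcnj5, GIRK4, 32314707 to 32344350, minus strand), 16 (Kcnj6, GIRK2, 94748636 to 94997701, minus strand) and 1 (Kcnj9, GIRK3, 172320501 to 172329318, minus strand) of GRCm38. All 4 rose, by unequal amounts. Kcnj9 had 92.4, 124 and 130 CPM at PND14 and 11.2, 14.5 and 17.5 CPM at PND1 (log2 3.08, SE 0.05). Kcnj3, the subunit that neuronal GIRK channels most often contain, had 110, 115 and 121 CPM at PND14 and 25.5, 30.1 and 35.5 CPM at PND1 (log2 1.96, SE 0.04). Kcnj6 had 37.5, 58.9 and 70.7 CPM at PND14 and 13.5, 18.6 and 21.8 CPM at PND1 (log2 1.67, SE 0.08). For these 3 the ages did not overlap. Kcnj5, best known from the heart, overlapped between ages, with 1.93, 3.45 and 4.202 CPM at PND14 and 2.18, 2.58 and 3.20 CPM at PND1 (log2 0.37, SE 0.11, adjusted p = 0.0012). Because 31.1% of Kcnj3 exon bases are shared with Gm26794 and the strand setting of the counting is not given in the sources used here, reads there cannot be told apart.

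Seen as shares of the summed GIRK level per kilobase, the family changed its make-up. Kcnj9 held 27.8% ± 2.93 at PND1 (SD, n = 14), 47.9% ± 2.53 at PND14 (SD, n = 12) and 47.3% ± 2.26 in 3-Tri (SD, n = 12) in saline pups. Kcnj3 held 47.8% ± 2.95, 37.9% ± 1.57 and 38.2% ± 1.44 in the same 3 groups. Kcnj6 held 19.8%, 12.9% and 12.96%, and Kcnj5 4.60%, 1.21% and 1.60%. Per kilobase of all exon bases, the leading GIRK transcript was thus Kcnj3 at PND1 and Kcnj9 at day 14. This length includes the 31.1% of Kcnj3 exon bases shared with Gm26794, and the order without shared bases was not tested.

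**Figure D2:**
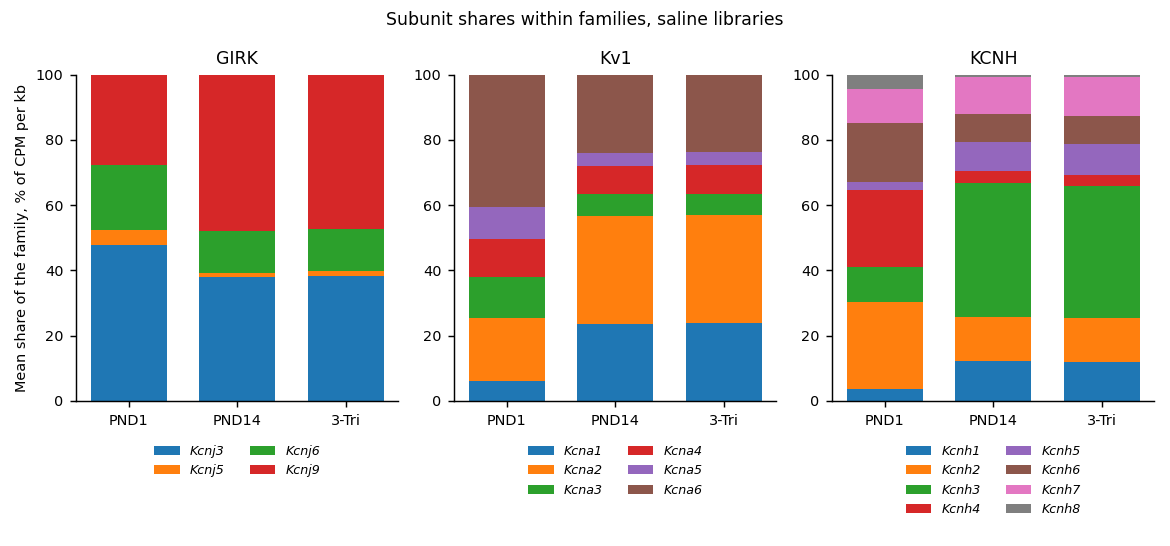
Stacked bars give the mean share (y axis, percent of the family's summed CPM per kb) of each subunit gene in saline pups at PND1 (n = 14), PND14 (n = 12) and 3-Tri (n = 12), for the GIRK, Kv1 and KCNH families. Kcnj9, Kcna1 and Kcnh3 take larger shares in both day 14 windows than at PND1, and the bars of PND14 and 3-Tri are close in each family.

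The voltage-gated channels of the Kv1 to Kv4 families rose in 14 of 15 genes, with a median log2 fold change of 1.01. Kcna1 (Kv1.1), a low-threshold channel of axons, had 45.4, 66.5 and 72.8 CPM at PND14 and 3.58, 4.89 and 6.14 CPM at PND1 (log2 3.74, SE 0.08). Its partner Kcna2 (Kv1.2) rose 5.85-fold, and within the Kv1 family the shares per kilobase were 6.06%, 23.7% and 23.8% for Kcna1 and 40.6%, 23.9% and 23.7% for Kcna6 at PND1, PND14 and 3-Tri. Of Kcna6 exon bases, 39.6% are shared with Gm26673. Kcnd2 (Kv4.2), an A-type channel of dendrites and the gene with the highest level per kilobase of the class, had 137, 158 and 176 CPM at PND14 and 88.2, 102 and 112 CPM at PND1 (log2 0.64, SE 0.04). Its relative Kcnd3 (Kv4.3) was the single gene of the class that fell, by 0.11 on the log2 scale (SE 0.04, adjusted p = 0.0073), with overlapping ranges of 72.5 to 91.1 CPM at PND14 and 83.9 to 99.2 CPM at PND1.

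Silent Kv subunits form no channel alone and modify Kv2 channels, and all 9 rose, with a median log2 fold change of 1.61. Of these, Kcng4 averaged 0.583 CPM in saline pups at PND1 and 5.93 CPM at PND14. It thus passed the threshold of 1 CPM through its day 14 levels, and the choice of genes favored its rise. Kcnf1 (Kv5.1), the highest of them per kilobase, had 143, 169 and 188 CPM at PND14 and 20.99, 25.8 and 28.5 CPM at PND1 (log2 2.73, SE 0.05). Kcng4 (Kv6.4) rose by 3.35 (SE 0.20), with 4.98, 5.67 and 8.52 CPM at PND14 and 0.108, 0.578 and 1.37 CPM at PND1. Neither gene's ages overlapped.

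KCNQ and KCNH genes went both ways. Of 13, 7 rose, 5 fell and Kcnq1 was not called, with a median log2 fold change of 0.16. Among genes with a mean above 1 CPM, 44.2% were called higher and 43.2% lower. Such a split is therefore not particular to this class. Kcnq3, a subunit of the channels that carry a slow potassium current restraining repeated firing, had 244, 284 and 314 CPM at PND14 and 82.5, 105 and 115 CPM at PND1 (log2 1.46, SE 0.05). Its relative Kcnq5 had 105, 125 and 144 CPM at PND14 and 28.7, 34.4 and 37.7 CPM at PND1 (log2 1.87, SE 0.05). Neither gene's ages overlapped.

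In the KCNH family, Kcnh3 (Kv12.2) had 137, 155 and 175 CPM at PND14 and 14.6, 21.9 and 27.9 CPM at PND1 (log2 2.82, SE 0.06). Kcnh5 and Kcnh1, both ether-a-go-go channels, rose by 2.74 (SE 0.09) and 2.68 (SE 0.05). Their relative Kcnh4 (Kv12.3) had the largest fall of all 79 genes, 3.64-fold, with 7.25, 9.38 and 11.1 CPM at PND14 and 22.4, 35.5 and 44.5 CPM at PND1 (log2 -1.86, SE 0.06). Kcnh8 (Kv12.1) fell by 1.45 (SE 0.10), also without overlap. The 3 Kv12 genes thus moved in opposite directions, and of the summed KCNH level per kilobase Kcnh4 held 23.6%, 3.55% and 3.38% and Kcnh3 10.7%, 41.2% and 40.6% at PND1, PND14 and 3-Tri.

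Auxiliary subunits rose in 7 of 10 genes and fell in 3, with a median log2 fold change of 1.19. Kcnab2, a cytoplasmic beta subunit of Kv1 channels, had 238, 260 and 272 CPM at PND14 and 40.1, 45.2 and 50.7 CPM at PND1 (log2 2.51, SE 0.03). Kcnip1, a calcium-binding KChIP subunit of Kv4 channels, fell by 0.42 (SE 0.04), with 43.1, 45.1 and 49.0 CPM at PND14 and 53.9, 60.9 and 66.7 CPM at PND1. Among the 4 KChIP genes its share per kilobase was 26.3%, 8.05% and 8.36% at PND1, PND14 and 3-Tri. Kcne2, a small subunit best known from the choroid plexus and stomach, fell by 1.75 (SE 0.16). Of 6 choroid plexus markers 5 were lower and 1 higher at PND14. By code, 5 were lower in M (median log2 fold change -0.81) and 2 in F (-0.18), and 1 was higher in each. Their part in the fall of Kcne2 was not tested. Kcnrg, a regulator of channel assembly, fell by 1.57 (SE 0.11). It averaged 1.87 CPM in saline pups at PND1 and 0.612 CPM at PND14, below the threshold of 1 CPM. The choice of genes thus favored its fall.

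Calcium- and sodium-activated channels had 6 rises and 3 falls among 9 genes (median 0.47). Kcnma1, the pore of the large-conductance BK channel, had 236, 302 and 330 CPM at PND14 and 112, 130 and 141 CPM at PND1 (log2 1.19, SE 0.04). Its beta subunit Kcnmb2 fell by 0.83 (SE 0.08), and Kcnu1, a BK relative known from sperm, fell by 0.73 (SE 0.10) at 2.195 to 4.62 CPM at PND14 and 4.60 to 6.42 CPM at PND1. Leak channels had 8 rises and 2 falls among 10 genes (median 1.07). Kcnk1 (TWIK-1), the highest per kilobase, had 49.3, 57.4 and 59.8 CPM at PND14 and 11.4, 13.5 and 16.1 CPM at PND1 (log2 2.04, SE 0.04), whereas Kcnk10 (TREK-2) fell by 0.89 (SE 0.05) and Kcnk5 (TASK-2) by 0.71 (SE 0.17). In saline pups Kcnk5 averaged 1.30 CPM at PND1 and 0.810 CPM at PND14, below the threshold of 1 CPM. The choice of genes thus favored its fall.

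Neighboring genes did not always move alike. Within 100 kb of each other lie 4 pairs, and Kcnj9 and Kcnj10, which stand back to back 11.9 kb apart on chromosome 1, both rose steeply (log2 3.08 and 3.27). Kcnj16 and Kcnj2, 38.2 kb apart on chromosome 11 on the same strand, had log2 fold changes of 2.83 and -0.10. Kcna3 and Kcna2, 63.1 kb apart on chromosome 3, had 0.85 and 2.55, and Kcna1 and Kcna6, 61.9 kb apart on chromosome 6, had 3.74 and 1.01.

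The 3-Tri saline pups, the other day 14 group, were set against the same PND1 pups, so both comparisons share those libraries. There 59 genes were higher and 14 lower than at PND1, all of them called in that direction at PND14 too, against 42.1% and 43% of all genes. Between 3-Tri and PND14 saline pups 0 of the 79 genes and 0% of all genes were called by edgeR, and 0 by DESeq2, with 3 of the genes and 723 of all genes at an unadjusted p below 0.05.

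Proteins that work with these channels but carry other names also changed. Of 13 partner genes of Kv, BK and ATP-sensitive channels 12 were tested, 10 rose and 1 fell (median log2 fold change 0.75). Over all genes tested, 41.7% were called higher and 43.2% lower. Lgi1, a secreted ligand tied to Kv1 channels, rose by 1.71 (SE 0.05) and its receptor Adam22 by 0.79 (SE 0.03). Amigo1, an adhesion protein that joins Kv channels, rose by 1.02 (SE 0.03), and the Kv4 partners Dpp6 and Dpp10 by 0.68 (SE 0.03) and 1.02 (SE 0.05). Cntn2, an adhesion molecule of the juxtaparanode where Kv1 channels gather, fell by 1.56 (SE 0.05). Of 15 genes that gate GIRK channels, 12 rose and 3 fell (median 0.60), against the same shares. The opioid receptor genes Oprm1 and Oprd1 rose by 1.82 (SE 0.05) and 2.83 (SE 0.08), and Gabbr2, a GABA-B receptor subunit, rose by 1.66 (SE 0.04). The G-protein subunit genes divided, with log2 fold changes of 0.93 (SE 0.03) for Gnai1, -1.03 (SE 0.03) for Gnai3 and -0.85 (SE 0.03) for Gng2.

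Morphine before birth was followed by small differences in potassium channel genes at PND1. Over both codes, 16 of the 79 genes were higher in morphine pups and 3 lower, against 7.39% and 9.43% of all genes tested, and the median log2 fold change was 0.04, against 0.01 over all genes. The log2 fold changes of called genes lay between -0.30 and 0.51, and in all 79 genes the ranges of morphine and saline libraries overlapped. Overlap was not counted over all genes. By class, 3 of 15 Kv1 to Kv4 genes, 4 of 13 KCNQ and KCNH genes, 3 of 10 auxiliary, 3 of 9 calcium- or sodium-activated and 3 of 13 Kir genes were higher. The 3 lower genes were Kcnj4 and the silent subunits Kcnf1 and Kcns1, and 0 of 10 leak channel genes were called.

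Kcnj2 had the smallest p. It was at 13.4, 13.9, 12.7 and 15.7 CPM in the 4 F morphine libraries and at 12.4, 14.1 and 16.5 CPM (lowest, median and highest) in M morphine pups. In saline pups it was at 10.2, 10.7 and 14.1 CPM in F and at 9.80, 11.48 and 12.8 CPM in M. The morphine values lay mostly above the saline values, with some overlap in each code, and over both codes the gene rose 1.23-fold (log2 0.29, SE 0.06, adjusted p = 0.0014). Kcnj16, its neighbor on chromosome 11, was at 3.76, 5.11 and 8.01 CPM in morphine pups and at 2.22, 3.51 and 4.60 CPM in saline pups over both codes (log2 0.51, SE 0.13, adjusted p = 0.007). In M the Kcnj16 ranges did not overlap, with 4.88 to 8.01 CPM in morphine pups and 2.41 to 4.60 CPM in saline pups, and the highest morphine library stood well above the rest. Its astrocytic partner Kcnj10 was higher by 0.21 (SE 0.07, adjusted p = 0.046).

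Kcnip1 was at 61.3, 69.5 and 77.5 CPM in morphine pups and at 53.9, 60.9 and 66.7 CPM in saline pups (log2 0.19, SE 0.04, adjusted p = 0.0018). Kcnq3 was at 95.9, 119 and 145 CPM in morphine pups and at 82.5, 105 and 115 CPM in saline pups (log2 0.21, SE 0.06, adjusted p = 0.012). In both genes the morphine median lay above the highest saline library, and the lower morphine libraries overlapped the saline range. Kcnj4 was at 4.80, 6.50 and 9.34 CPM in morphine pups and at 6.86, 8.50 and 10.2 CPM in saline pups, and fell by 0.30 on the log2 scale (SE 0.08, adjusted p = 0.0092). The remaining named rises were Kcnip4 (0.27), Kcnb2 (0.22), Kcnh8 (0.21), Kcnt2 (0.21), Kcnd2 (0.16) and Kcnma1 (0.14), and Kcnf1 fell by 0.19.

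**Figure D3:**
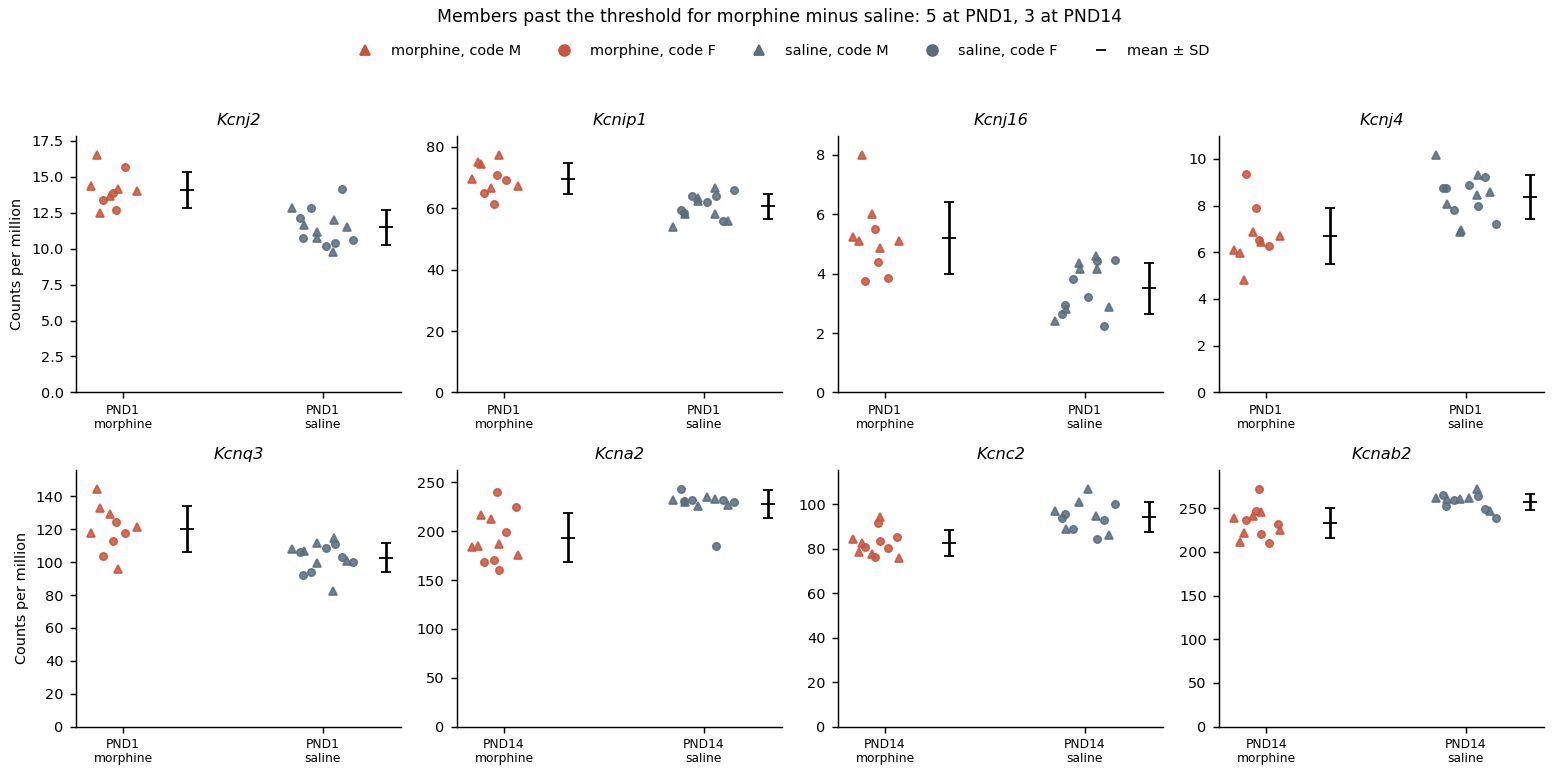
CPM (y axes from 0) in each library, morphine left of saline, for 5 genes at PND1 (10 morphine and 14 saline libraries) and 3 genes at PND14 (12 each), with triangles for code M, circles for code F and black bars for the mean ± SD. Kcnj2, Kcnip1, Kcnj16 and Kcnq3 sit higher with morphine and the other 4 genes lower, and in every panel the clouds overlap.

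The direction at PND1 went along with base composition. The 16 higher genes had a transcript GC content of 39.3% to 51.9% (median 45.1%) and the 3 lower genes of 54.2% to 60.9%. Across the 79 genes Pearson's r between GC content and the log2 fold change was -0.62, and across 18218 genes with a mean above 1 CPM it was -0.50, and genes within these libraries are not independent replicates. Once GC content and length were corrected in each library, r over the 79 genes was -0.10, and 7 genes stayed higher (Kcnd3, Kcnip1, Kcnj16, Kcnj2, Kcnma1, Kcnn2 and Kcnq3) and 0 lower. With that correction Kcnj16 had a log2 fold change of 0.44, Kcnj2 of 0.20 and Kcnip1 of 0.16. At PND14 the same r over the 79 genes was 0.06.

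**Figure D4:**
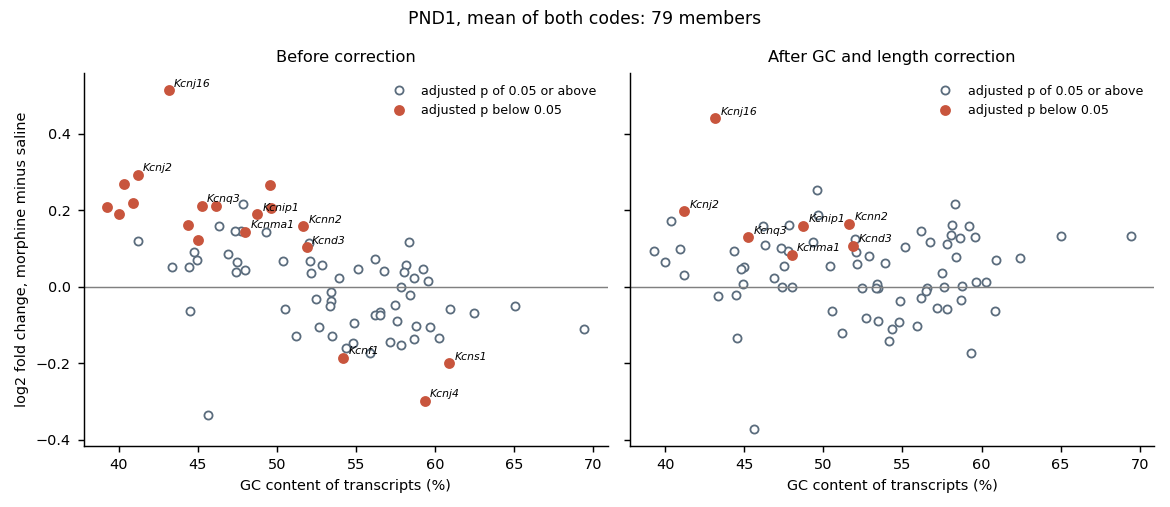
Each point is 1 of 79 genes at PND1, with transcript GC content in percent (x axis) against the log2 fold change of morphine minus saline over both codes (y axis), before (left) and after (right) the correction for GC content and length, and filled points were called. The downward slope on the left (r = -0.62) is nearly gone on the right (r = -0.10), where 7 filled points remain, and names are given for these and for Kcnj4, Kcnf1 and Kcns1.

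Separately by code, 11 genes were higher and 2 lower with morphine in M at PND1, against 6.31% and 8.08% of all genes, and all 11 were also higher over both codes. The 2 lower genes were Kcnj4 (log2 -0.44, SE 0.10) and Kcns1 (log2 -0.37, SE 0.08). In M r between GC content and the log2 fold change was -0.67 over the 79 genes, and after the GC and length correction 3 genes were higher (Kcnip1, Kcnj16 and Kcnc4, of which the first 2 were also called without it) and 0 lower. The replicate block with the correction left 0 in either direction. That block compares the drugs in M only through replicates 8, 9 and 10, and replicate numbers did not pair samples, so no conclusion is drawn from it. In F 0 of 79 genes and 0% of all genes were called by edgeR and 0 of 79 by DESeq2, with 5 of the genes and 2547 of all genes at an unadjusted p below 0.05. Those with the smallest p there were Kcnj2 (log2 0.27), Kcnd3 (0.12), Kcnma1 (0.14) and Kcnk6 (-0.29). The difference of the morphine effect between M and F was called for 0 of 79 genes and 0% of all genes in each window (edgeR, also 0 of 79 with DESeq2), with 2 genes at an unadjusted p below 0.05 at PND1, 7 at PND14 and 1 in 3-Tri, so an effect limited to M was not shown. In 3-Tri, 6 of 12 libraries of each code went against it, so there the contrast of the codes cannot show a difference between the sexes. Without those 12 libraries 0 of the 79 genes were called as well. The counts moved when single libraries were left out. In M, 5 genes were higher without morphine replicate 9, 7 without morphine replicate 8 or 10 and 6 without saline replicate 11, and 4 to 5 were lower without morphine replicate 5 or without saline replicate 8, 13 or 14. Over both codes, 10 were higher without F morphine replicate 3 and 5 lower without M saline replicate 13. Without the 4 libraries that went against their code, 13 were higher and 2 lower over both codes.

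Some markers of other cells moved with these genes at PND1. Of 7 astrocyte markers 2 were higher and 0 lower with morphine, and their summed level was 733 to 1083 CPM in morphine pups and 622 to 893 CPM in saline pups. Of 7 neuron markers 3 were higher and 1 lower, of 5 striatal markers 0 were higher and 2 lower, and of 7 tested hindbrain and spinal cord markers 0 were called, with sums of 14.0 to 74.0 CPM in morphine pups and 9.25 to 46.5 CPM in saline pups. In M alone, 2 of these 7 were higher and 1 lower with morphine, with a median log2 fold change of 1.88 and sums of 14.0, 46.2 and 74.0 CPM in morphine pups and 10.2, 28.3 and 46.3 CPM in saline pups, and in F 0 were called, with a median of -0.85. Their part in the result was not tested. Of the channel partners, 4 of 12 tested were higher and 0 lower over both codes, against 7.39% and 9.43% of all genes. They included the Kv4 partners Dpp6 (log2 0.19) and Dpp10 (log2 0.18). Among the Kv4 and KChIP genes, the GC and length correction kept the calls of Kcnd3 and Kcnip1 and lost those of Kcnd2 and Kcnip4. The partner counts were made without that correction, and a joint change of Kv4 complexes was not shown. Of the 15 GIRK-gating genes 3 were higher and 2 lower, against the same shares, among them Gabbr2 (log2 0.11) and Gng2 (log2 0.11) higher. A joint change of these 15 genes was not shown.

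Morphine after birth gave fewer calls. At PND14, over both codes, 0 genes were higher and 3 lower, against 0.626% and 1.06% of all genes. Kcnc2 (Kv3.2), a channel of fast-spiking interneurons, was at 75.8, 81.6 and 94.0 CPM in morphine pups and at 84.3, 94.1 and 107 CPM in saline pups (log2 -0.19, SE 0.04, adjusted p = 0.02). Kcna2 was at 160, 186 and 240 CPM in morphine pups and at 185, 231 and 243 CPM in saline pups (log2 -0.23, SE 0.06, adjusted p = 0.035). Kcnab2, the beta subunit that travels with Kv1 channels, was at 210, 234 and 272 CPM in morphine pups and at 238, 260 and 272 CPM in saline pups (log2 -0.14, SE 0.04, adjusted p = 0.04). In each of the 3 the morphine libraries were spread toward low values while some reached the saline level.

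These 3 calls at PND14 depended on how pups were counted. They were lost (0 lower) when counts were summed over the libraries of 1 ID number and code, and 0 were lower without ID number 4424 or 4425 and 1 without ID number 4423. Markers of oligodendrocytes, whose myelin covers axons that carry Kv1 channels, moved with them. Of 7 such markers 0 were higher and 4 lower with morphine at PND14, with sums of 2691 to 5114 CPM in morphine pups and 4076 to 5996 CPM in saline pups, and their part in the result was not tested. Separately by code, 0 genes were called in M, against 0.0815% of all genes called higher and 0.199% lower, and 0 in F, with 13 and 14 genes at an unadjusted p below 0.05. DESeq2 called 3 lower in M and 0 in F. The smallest p in M belonged to Kcnc2 (log2 -0.22), Kcnc1 (-0.21), Kcnab2 (-0.17) and Kcnj12 (-0.31), and in F to Kcne2 (-0.77), Kcnh1 (-0.20), Kcnab1 (-0.13) and Kcnc2 (-0.16).

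In 3-Tri pups, exposed before and after birth, 0 of the 79 genes and 0% of all genes were called by edgeR in M, in F or over both codes, and 0 of the 79 by DESeq2. Here 6 of 12 libraries of each code went against it, more of them with morphine than with saline. The M and F contrasts of this window therefore mix drug with sex and do not stand for the sexes. At an unadjusted p below 0.05 there were 5 genes in M, 3 in F and 7 over both codes, and 982, 476 and 963 of all genes. Over both codes the smallest p belonged to Kcnh2 (log2 0.13, SE 0.04), the ERG1 channel, Kcng1 (-0.17, SE 0.06), Kcnq5 (-0.10, SE 0.04) and Kcna6 (-0.06, SE 0.02). In M it belonged to Kcnt1 (0.15), Kcnq5 (-0.15), Kcnj11 (-0.14) and Kcnma1 (-0.12), and in F to Kcnh4 (0.22), Kcng1 (-0.20), Kcnh2 (0.14) and Kcnk10 (-0.11). None of these passed.

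The GIRK genes, which lie directly downstream of the opioid receptor, were called in no morphine comparison. Over both codes Kcnj3 had log2 fold changes of 0.05 (SE 0.05), -0.03 (SE 0.03) and -0.01 (SE 0.03) in the PND1, PND14 and 3-Tri windows. Its medians were 30.6 CPM with morphine and 30.1 CPM with saline at PND1, 114 and 115 CPM at PND14, and 117 and 118 CPM in 3-Tri. Kcnj6 had 0.07 (SE 0.09), -0.18 (SE 0.09) and -0.06 (SE 0.06) in the same order, and Kcnj9 had -0.10 (SE 0.07), -0.10 (SE 0.04) and -0.01 (SE 0.03). The value of Kcnj9 at PND14 had an unadjusted p of 0.028 and an adjusted p of 0.24. Kcnj5 had -0.13 (SE 0.10), 0.12 (SE 0.11) and -0.02 (SE 0.12), at levels of only 1.62 to 5.11 CPM in morphine pups. Over all processing alternatives run, 0 of 1116 fits of a GIRK gene passed the threshold in a morphine comparison. These fits reuse the same genes and libraries, so their number adds no separate evidence. In F at PND1 and PND14, and in every 3-Tri comparison of morphine and saline, the main fits called 0 genes of any kind. Such comparisons could hardly have called a GIRK gene, so they do not show that morphine left these genes unchanged.

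**Figure D5:**
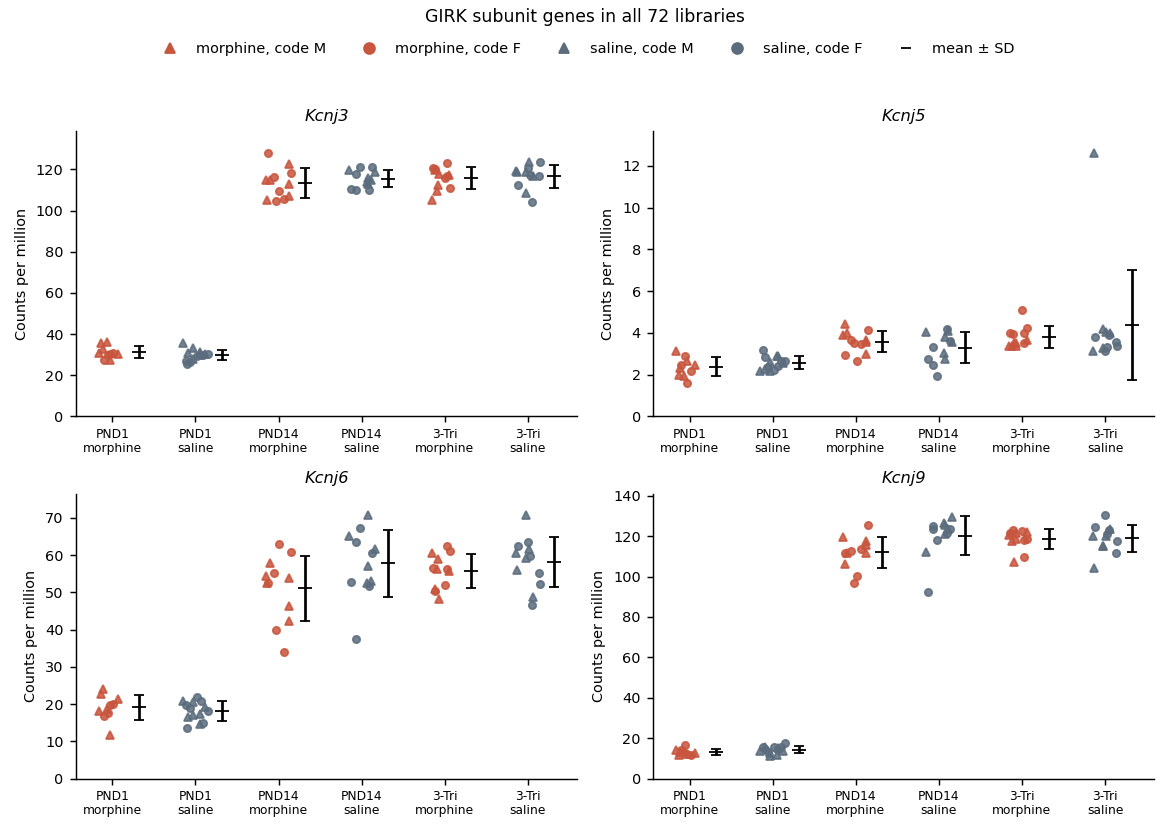
CPM (y axes from 0) of the 4 GIRK genes in all 72 libraries by window, with morphine left of saline, triangles for code M, circles for code F and black bars for the mean ± SD. Kcnj3, Kcnj6 and Kcnj9 are far higher in both day 14 windows than at PND1, morphine and saline clouds overlap in every window, and 1 shallow 3-Tri saline library stands at 12.6 CPM of Kcnj5.

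Tested directly, the morphine effect differed between windows for some genes. The effect at PND1 was above that at PND14 for 15 genes and below it for 1, against 6.07% and 7.25% of all genes. The 6 with the smallest p were Kcnab1 (difference of log2 fold changes 0.24, SE 0.05, adjusted p = 0.0012), Kcnq3 (0.30), Kcna2 (0.32), Kcnj16 (0.56), Kcnma1 (0.24) and Kcnh1 (0.28), and the lower one was Kcnj4 (-0.31). Kcnab1 and Kcna2 encode partners in Kv1 channels, and Kcna2 had log2 fold changes of 0.09 at PND1 and -0.23 at PND14. Over the 79 genes r between GC content and this difference was -0.57, and after the GC and length correction 10 genes were above and 0 below, among them 7 of the 15 (Kcna2, Kcnd3, Kcnh1, Kcnj10, Kcnj16, Kcnma1 and Kcnq3). Without ID number 4422 or 4425, 9 genes were above, and without ID number 4424, 0 were below.

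Against 3-Tri, the PND1 effect was above for 9 genes and below for 2 (Kcnt1, -0.16, and Kcnh2, -0.19), against 3.85% and 4.58% of all genes. The 6 with the smallest p were Kcnq3 (0.29), Kcnj16 (0.54), Kcnj2 (0.33), Kcnq5 (0.24), Kcnma1 (0.22) and Kcnip1 (0.21). Both differences rest on the same PND1 libraries. Here r with GC content was -0.51, and the correction left 6 genes above and 0 below, among them 4 of the 9 (Kcnj16, Kcnma1, Kcnq3 and Kcnq5). Without the libraries that went against their code, 0 genes were above and 0 below, without ID number 4433, 0 were above and 0 below, without ID number 4429, 3 were above and 1 below, and without ID number 4431 or 4436, 1 was below. The effects at PND14 and in 3-Tri differed for 0 of the 79 genes in either direction, against 0.136% and 0.0454% of all genes (edgeR, also 0 with DESeq2).

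Few of these genes differed between code M and code F at PND1. There, over both drugs, 1 gene was higher and 1 lower in M, against 2.5% and 2.22% of all genes. Kcne2 was at 2.64, 4.81 and 8.55 CPM in M and at 2.62, 3.45 and 5.55 CPM in F (log2 0.53, SE 0.15, adjusted p = 0.039), and the summed choroid plexus markers were at 229, 434 and 600 CPM in M and at 225, 297 and 487 CPM in F, whose part in the result was not tested. Kcnt1, the sodium-activated channel Slack, was at 91.2, 98.8 and 106 CPM in M and at 99.97, 110 and 118 CPM in F (log2 -0.14, SE 0.03, adjusted p = 0.0065), with overlapping ranges. Leaving out 1 library left 0 higher in 14 of 24 cases, the GC correction left 0 in either direction, and without the 4 libraries against their code 2 were higher and 3 lower. At PND14 0 of 79 genes differed, against 0.0255% of all genes higher and 0.0815% lower, and in 3-Tri 0 of 79 and 0% of all genes (edgeR, also 0 with DESeq2), with 5 and 1 genes at an unadjusted p below 0.05. The 3-Tri contrast cannot show a difference between the sexes, since 6 of 12 libraries of each code went against it, and without those 12 libraries 0 of the 79 genes were called.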

How the data were processed

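Libraries were made from the right hemisphere of the brain of 72 pups, for which the submitters' design text names the cortex, and PND15 where the labels and the methods give PND14. Raw counts per gene were deposited by the authors, who used Trim Galore, HISAT2, Picard and featureCounts on GRCm38 (mm10) with GENCODE M25. The submitters' processing notes list Trim Galore 0.6.6, HISAT2 2.2.1, SAMtools, featureCounts 2.0.1, R 4.2.1 and DESeq2 1.36.0. The sources used here do not give a strand setting. A mean signal per gene, as counts over size factors, stands in the comparison tables that the authors deposited, which here served only for gene names and biotypes. Their log2 fold changes and p-values, also deposited by the authors as DESeq2 results with a test score, were not used.

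From the counts, edgeR 4.0.16 in R 4.3.3 fitted quasi-likelihood models with TMM scaling and filterByExpr. The 4 groups of a window were fitted together, and contrasts between windows used all 72 libraries in 12 groups. P-values were Benjamini-Hochberg adjusted over all genes tested, with 0.05 as threshold. The SE is the log2 fold change over the square root of F. Exon length and GC content were taken from the GENCODE M21 annotation, which matched 55141 of 55401 IDs, and plots from Python 3.11.15 and matplotlib 3.10.9. Alternatives were DESeq2 1.42.0, its size factors, no filter on low counts, a lowess correction (span 0.3) for GC content and length, a fit of only the 2 groups at hand, a replicate block, omission of single libraries or ID numbers, counts summed per ID number and code, and leaving out the shallow libraries or those against their code.

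The genes, lists and tests were chosen with earlier results of these data known. Named were, per class, the gene with the highest level per kilobase, the 10 largest rises and falls in saline pups, the GIRK genes, at least 4 genes by smallest p in each morphine comparison with up to 12 of those called, up to 6 per difference between windows or codes, and up to 6 of each partner list. Values of 3 genes that enter all counts are not reported here. No sample was left out of the main fits, and replicates did not agree within sampling noise (lowest chi-square per gene 1.64). The labels do not say that samples of a group came from separate litters, so p-values measure the spread between these samples.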

Additional observations from a re-analysis of the deposited data

Results flagged for a closer look

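In 13 of 136 gene and group combinations 1 library lay apart from the rest of its group by Dixon's test at the 95% level, where chance gives about 1 in 20. In M morphine pups at PND1, replicate 9 was high for Kcnj16 (8.01 CPM) and Kcnj10 (44.2 CPM), and replicate 5 was apart for Kcnh7 (49.9 CPM), Kcnma1 (118 CPM) and Kcnt2 (14.1 CPM). Kcnt2 was also apart in F morphine replicate 2 (17.01 CPM) and in F saline replicate 6 (19.2 CPM) of PND1, and Kcnip4 in F saline replicate 5 (52.4 CPM). Kcnj9 was low in 3-Tri M morphine replicate 8 (107 CPM), in 3-Tri F morphine replicate 7 (109 CPM) and in PND14 F saline replicate 6 (92.4 CPM), and Kcna2 in PND14 F saline replicate 12 (185 CPM). Kcnj5 reached 12.6 CPM in 3-Tri M saline replicate 1, the shallowest library.

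The morphine effect differed between windows by a direct test in edgeR. At PND1 it was above that at PND14 for Kcnab1 (difference of log2 fold changes 0.24), Kcnq3 (0.30), Kcna2 (0.32), Kcnj16 (0.56), Kcnma1 (0.24) and Kcnh1 (0.28). Above that in 3-Tri it was for Kcnq3 (0.29), Kcnj16 (0.54), Kcnj2 (0.33), Kcnq5 (0.24), Kcnma1 (0.22) and Kcnip1 (0.21). Of the differences from 3-Tri, 0 genes remained higher without ID number 4433 or without the libraries against their code, and 3 were higher without ID number 4429. Of the differences from PND14, 9 genes were higher without ID number 4422 or 4425. Both differences went along with GC content (r = -0.57 and -0.51 over the 79 genes). After the GC and length correction Kcnab1 was no longer called against PND14, nor Kcnj2 and Kcnip1 against 3-Tri.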

How the results depend on the processing

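The counts for saline pups between PND14 and PND1 were steady, with 58 to 60 genes higher and 11 to 15 lower in every alternative run. With the replicate block, in which a library whose number has no partner carries no information, 58 were higher and 11 lower, and Kcnd3, Kcnh2, Kcnj5 and Kcnt1 were no longer called. Replicate numbers did not pair samples: over 31 same-number pairs correlations of deviations ran from -0.22 to 0.21, and 5 were over 0.1. Morphine counts moved more. In M at PND1 (11 higher, 2 lower), the GC and length correction left 3 and 0, only the groups compared 7 higher, the replicate block 9 and 0, the replicate block with the correction 0 and 0, and leaving out 1 library 5 to 16 higher and 2 to 5 lower. Over both codes at PND1 (16 and 3), the correction left 7 and 0, the replicate block 16 and 3, the block with the correction 9 and 0, DESeq2 gave 5 lower, and leaving out 1 library gave 10 to 19 and 2 to 5. Kcns1 there turned to a log2 fold change of 0.0021 under the block with the correction, and the cause was not tested. At PND14 over both codes (0 and 3), the correction gave 1 higher, DESeq2 5 lower, the replicate block 0, the block with the correction 1, summed counts 0, and leaving out an ID number 0 to 2 lower. In M at PND14 (0 lower), DESeq2 gave 3 and only the groups compared 4. For PND1 minus PND14 (15 and 1), the correction gave 10 higher and 0 lower, and leaving out an ID number 9 to 12 higher and 0 to 1 lower. For PND1 minus 3-Tri (9 and 2), leaving out libraries against their code gave 0 and 0, no filter 0 lower, the correction 6 higher and 0 lower, and leaving out an ID number 0 to 9 higher and 0 to 1 lower. For PND14 minus 3-Tri leaving out an ID number gave 0 to 1 lower. For M minus F at PND1 (1 and 1), DESeq2 gave 2 higher, the correction 0 and 0, leaving out libraries against their code 2 and 3, and leaving out 1 library 0 to 4 and 1 to 2. Depth limits genes near 1 CPM, such as Kcng4 at PND1.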

Other observations

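Non-coding genes that carry a Kcn name, and so fell outside the potassium channel genes above, also differed between PND14 and PND1 in saline pups. The antisense genes Kcnmb4os1, Kcnmb4os2 and Kcnab3os were higher at PND14 by log2 fold changes of 1.05, 0.79 and 1.18, while Kcnq1ot1, an imprinted antisense transcript, was lower (-0.31, adjusted p = 0.0067), as was Kcnd3os (-0.23, adjusted p = 0.012). Without strand information reads of Kcnmb4os1 and Kcnmb4os2 cannot be told apart from those of Kcnmb4, with which they share exon bases. The same holds for the shared bases of Kcnab3os, Kcnq1ot1 and Kcnd3os. They make up 5.13% of the exon bases of Kcnab3, 2.96% of those of Kcnq1 and 1.72% of those of Kcnd3. Of the 13 protein-coding Kcn genes at or below 1 CPM, 4 were tested. Kcnmb1, a BK beta subunit of smooth muscle, was higher at PND14, at a mean of 0.545 CPM, against 0.0676 CPM at PND1 (log2 2.87, SE 0.24), and 6 of 6 pericyte and smooth muscle markers were higher too, whose part was not tested. Kcnv2 was lower, at 0.123 CPM at PND14, against 0.457 CPM at PND1 (log2 -1.79, SE 0.30), and Kcne4 and Kcnn4 were not called.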
